A study of Mus musculus with 6 samples.

Results

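The phosphatidylinositol 3-kinase-like kinases are a family of very large proteins that share a kinase fold and a conserved tail, and that phosphorylate proteins rather than lipids. The genes Atm, Atr, Prkdc, Smg1, Mtor and Trrap were taken by symbol, which gave 10 probe rows for 6 genes, out of 30146 rows for 21400 symbols. A row holds the counts of 1 TempO-Seq detector probe, a pair of short DNA oligos that bind next to each other on an RNA in the lysate, are joined there and are then read by sequencing. Where a gene had more than 1 probe, probe 1 is the one with the higher mean level. Rows were taken by symbol whatever their values, but the genes were chosen with earlier results of these data known.

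The RNA came from pancreatic islets of 3 male wild-type C57Bl/6 mice. Islets of each mouse were split between 10 uM cisplatin and the saline vehicle (0.9%) for 48 h, giving 3 cisplatin and 3 vehicle libraries. Cisplatin is a platinum drug that crosslinks DNA. The age of the mice is not given in the sources used here. Islets of both groups were kept in RPMI medium with serum, so the exposure was outside the body.

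ATM, ATR and DNA-PKcs, the product of Prkdc, are the kinases that signal DNA damage. ATM responds to double-strand breaks, ATR to single-stranded DNA at stalled replication forks and other lesions such as those left by crosslinking drugs, and DNA-PKcs to broken ends that are to be joined directly. SMG1 phosphorylates UPF1 in nonsense-mediated decay, the pathway that removes mRNAs with premature stop codons. mTOR is the kinase of the growth-controlling complexes mTORC1 and mTORC2 and in beta cells acts on cell size and insulin production. TRRAP has lost kinase activity and serves as a scaffold of histone acetyltransferase complexes. These proteins are controlled largely by recruitment and phosphorylation, which RNA counts do not measure.

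Library totals were 1116916 to 1366829 counts with cisplatin and 1470227 to 2272276 with vehicle. The hormone genes of the labelled tissue were high, with Ins1 at a mean of 40200 CPM (counts scaled to a common library size with TMM factors) with cisplatin and 48000 CPM with vehicle. Markers of other cells also differed between the groups. Summed over 13 immune markers, levels were 22 to 56.8 CPM with cisplatin and 153 to 226 CPM with vehicle, and Cd74, H2-Aa, C1qa, C1qb and Csf1r, 5 of the 7 tested, fell, while 3 of the 13 (Adgre1, H2-Ab1 and Cd3e) were at 0 in every cisplatin library. The 8 endothelial markers summed to 44.8 to 82.6 CPM and 68.8 to 103 CPM (Esam rose and Kdr and Eng fell, and Cdh5 and Emcn were at 0 with cisplatin), and the 8 stromal markers to 30.4 to 52.3 CPM and 50.5 to 146 CPM (Rgs5 fell, 1 of 4 tested, and Dcn was at 0 with cisplatin). Acinar markers summed to 13.9 to 53.3 CPM and 18.9 to 24.4 CPM, and duct markers to 1270 to 2320 CPM and 1130 to 1560 CPM, with no called gene in either list (1 and 3 tested), and 6 of 15 acinar markers were at 0 with cisplatin and 3 with vehicle. Most of the duct sum was Krt7, at means of 1400 CPM with cisplatin and 1190 CPM with vehicle. Krt19 averaged 0.674 and 1.05 CPM and Sox9 2.5 and 0 CPM. Among the markers that fell, Cd74, H2-Aa, C1qa, Csf1r, Eng and Rgs5 had 1 to 11 counts each over the cisplatin libraries. Over the vehicle libraries they had 70 to 278. They passed the filter on low counts through their vehicle libraries alone. Of 15 islet endocrine genes 14 were tested and 7 fell. Over all 7186 genes taken by their most abundant probe, 13.8% were called lower. The part of these shifts in the results on the kinases was not tested.

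Of the 10 kinase probes 4 were called lower in islets exposed to cisplatin, namely the single Atr probe and probe 1 of Atm, Mtor and Trrap (edgeR quasi-likelihood test, Benjamini-Hochberg adjusted p under 0.05 over 9381 rows). Atr is in that count although it passed the filter on low counts through its vehicle libraries alone, and without it 3 probes remain. The fitted change was below 0 in all 7 tested probes, and in 4926 of the 9381 tested rows. Probe 1 of Smg1 and probe 2 of Atm and of Mtor did not pass the test. The Prkdc probe and probe 2 of Smg1 and of Trrap had too few counts to be tested. Over all tested rows 13.9% were called lower and 11.1% higher. With the mouse as a block 2 family probes were called lower, and limma-voom called 3. The number was 3 without cisplatin library 1, 2 without cisplatin library 2 or 3 or vehicle library 2, 1 without vehicle library 3 and 0 without vehicle library 1. No family probe was called higher by edgeR, DESeq2 or limma-voom, and 0 were higher at an unadjusted p under 0.05. In bulk lysate, fewer cells of a type and less RNA per cell cannot be told apart.

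**Figure D1:**
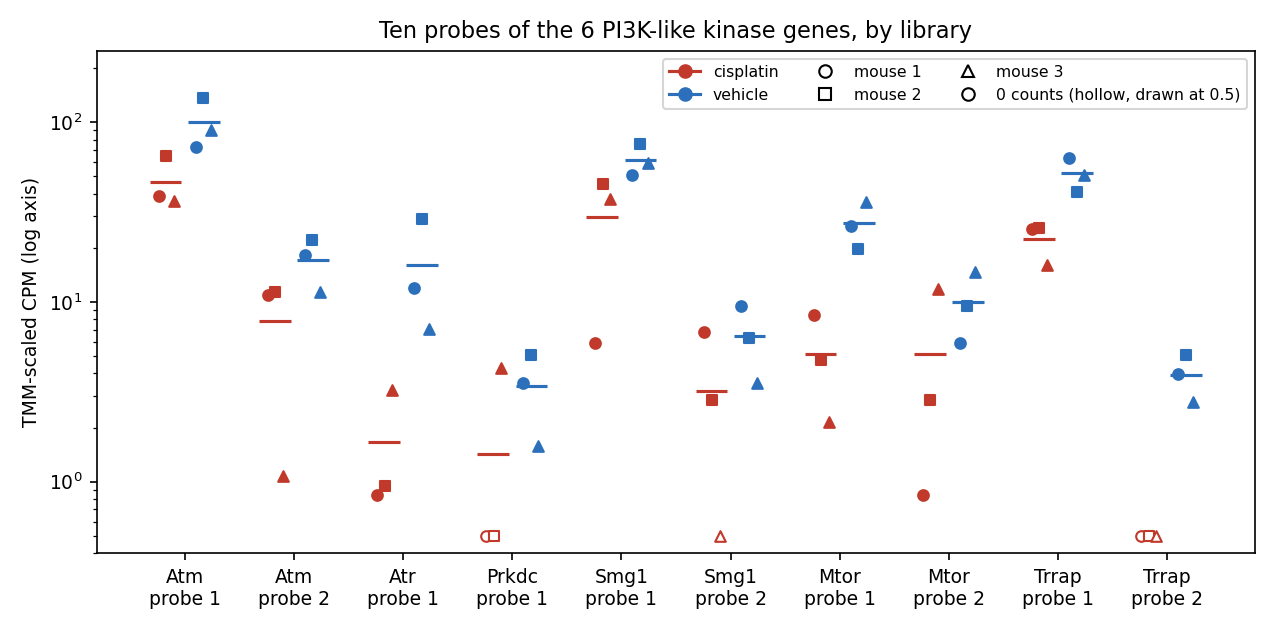
TMM-scaled CPM on a log axis for the 10 probes of the 6 genes in each library, with cisplatin in red left of vehicle in blue, symbols for the mouse and a bar for the group mean. Every cisplatin library lies below every vehicle library for 7 probes, and hollow symbols on the floor of the plot are libraries with 0 counts.

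The 10 probes together held 116, 167 and 105 counts in the cisplatin libraries, against 674, 553 and 707 in the vehicle libraries. In CPM of the library totals that was 104, 124 and 76.8 with cisplatin, against 337, 376 and 311 with vehicle. All cisplatin values were below all vehicle values. The means were 102 ± 23.6 and 342 ± 32.7 CPM (SD, n = 3 each), a ratio of 0.297 (exact permutation test, two-sided, p = 0.1, the smallest p that 3 against 3 libraries allow). On the TMM scale the ratio was 0.413 and p was again 0.1 by the exact permutation test. Neither permutation test used the pairing of libraries by mouse. Of the 10 probes 9, all but that of Prkdc, were lower with cisplatin in all 3 mice. The share of all rows with this pattern was not worked out. Of the 7 tested probes 6 had every cisplatin library below every vehicle library, as did 24.3% of all tested rows, and of the 3 untested probes 1 did, probe 2 of Trrap.

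Among the damage kinases Atm and Atr were called lower, and Prkdc was too low to test. Atm probe 1 (identifier 74999) had 38.9, 64.6 and 36.5 CPM in the cisplatin libraries, against 72.7, 136 and 90.5 CPM in the vehicle libraries. The groups did not overlap, and mouse 2 was highest in both. The means were 46.7 ± 15.6 and 99.7 ± 32.5 CPM (SD, n = 3 each), a log2 fold change of -1.09 ± 0.37 (SE, edgeR adjusted p = 0.0440). Atm probe 2 (72143) had 11.0, 11.4 and 1.07 CPM with cisplatin, against 18.2, 22.1 and 11.4 CPM with vehicle. Its low value in cisplatin library 3 is a single count, and the log2 fold change was -0.60 without that library. The fitted log2 fold change of probe 2 was -1.10 ± 0.71 (edgeR adjusted p = 0.288), close to that of probe 1 with a wider interval (95% interval -2.64 to 0.43, against -1.88 to -0.30). Atm probe 1 was no longer called without cisplatin library 1 or 3 or any vehicle library (edgeR adjusted p = 0.0775 to 0.154, log2 fold change -1.24 to -0.82).

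Atr, whose kinase works with the partner protein ATRIP, had a single probe (59418). Its counts were 1, 1 and 3 in the cisplatin libraries, against 30, 46 and 18 in the vehicle libraries. In CPM that was 0.846, 0.951 and 3.22 with cisplatin, against 11.9, 29.0 and 7.08 with vehicle. The groups did not overlap, although the vehicle values themselves spread about a mean of 16.0 ± 11.5 CPM (SD, n = 3). Within mice the log2 difference, with a small constant added to the counts, was -3.25, -4.36 and -0.96 in mouse 1, 2 and 3. The log2 fold change was -3.23 ± 0.93 (SE, edgeR adjusted p = 0.0209, 95% interval -5.23 to -1.24). The probe passed the filter on low counts through its vehicle libraries alone. It was not called by limma-voom (adjusted p = 0.129), with the mouse as a block (edgeR adjusted p = 0.0542) or without cisplatin library 2 (0.0602), vehicle library 1 (0.0844) or vehicle library 2 (0.149, log2 fold change -2.50), and stood at -4.03 without cisplatin library 3. A gene annotated on the opposite strand, 1700065D16Rik, overlaps the start of Atr. Each row counts a pair of oligos bound to an RNA, and where the Atr pair binds was not looked up. Any part of that gene in the Atr counts was not tested.

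Prkdc was near the limit of detection. Its probe (60613) had 0, 0 and 4 counts in the cisplatin libraries, against 9, 8 and 4 in the vehicle libraries. All cisplatin counts lay in library 3, and in mouse 3 the scaled level was higher with cisplatin (4.29 CPM) than with vehicle (1.57 CPM). Summed over libraries the level was 2.50-fold lower with cisplatin, with an exact 95% counting interval of 0.843 to 10.0 that takes in no difference. A change in Prkdc was therefore not detectable at this depth.

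Smg1, the decay kinase, was measured by probe 1 (70207) at 5.92, 45.6 and 37.5 CPM in the cisplatin libraries, against 50.6, 75.8 and 59.4 CPM in the vehicle libraries. The groups did not overlap, but cisplatin library 1 stood far below the others, with 7 counts against 48 and 35. The means were 29.7 ± 21.0 and 61.9 ± 12.8 CPM (SD, n = 3 each). The log2 fold change was -1.07 ± 0.53 (SE, edgeR adjusted p = 0.163) and was -0.48 without cisplatin library 1. The probe was called lower with library totals alone as the scale (-1.64, edgeR adjusted p = 0.0200) and by limma-voom (-1.53, adjusted p = 0.0439). Smg1 probe 2 (76173) had 8, 3 and 0 counts with cisplatin, against 24, 10 and 9 with vehicle. Those counts give a 1.86-fold lower level with cisplatin, with a 95% counting interval of 0.943 to 4.

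Mtor, the growth kinase, was read by probes whose fitted changes differed in size. Probe 1 (80419) had 8.46, 4.75 and 2.14 CPM in the cisplatin libraries, against 26.5, 19.6 and 36.2 CPM in the vehicle libraries. Every cisplatin library was far below every vehicle library, and mouse 3 held both the lowest cisplatin and the highest vehicle value. The means were 5.12 ± 3.17 and 27.4 ± 8.36 CPM (SD, n = 3 each), a log2 fold change of -2.38 ± 0.62 (SE, edgeR adjusted p = 0.0128, 95% interval -3.71 to -1.05). Probe 2 (71943) had 0.846, 2.85 and 11.8 CPM with cisplatin, against 5.93, 9.47 and 14.6 CPM with vehicle. Here the groups overlapped, since cisplatin library 3 lay above vehicle libraries 1 and 2. Its log2 fold change was -0.99 ± 0.91 (SE, edgeR adjusted p = 0.469) and ranged from -2.39 without cisplatin library 3 to -0.35 without cisplatin library 1. The 95% intervals of the probes overlap, and the difference between them was not tested. Probe 1 was not called without vehicle library 1 (edgeR adjusted p = 0.0635) or 3 (0.0987), or by limma-voom (0.05, on the threshold).

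Trrap, the scaffold, had 25.4, 25.7 and 16.1 CPM at probe 1 (78484) in the cisplatin libraries, against 63.6, 41.0 and 51.2 CPM in the vehicle libraries. The groups did not overlap, with 25.7 CPM as the highest cisplatin value and 41.0 CPM as the lowest vehicle value. The means were 22.4 ± 5.45 and 51.9 ± 11.3 CPM (SD, n = 3 each), a log2 fold change of -1.21 ± 0.40 (SE, edgeR adjusted p = 0.0382). Probe 2 (70161) had 0 counts in all 3 cisplatin libraries, against 10, 8 and 7 in the vehicle libraries. Against a floor of 3 counts over the cisplatin group that is at least 3.97-fold lower, a bound that covers counting error only. Probe 1 was not called with the mouse as a block (edgeR adjusted p = 0.0567), without filtering (0.0515), or without cisplatin library 2 (0.0589) or 3 (0.0994) or vehicle library 1 (0.224) or 3 (0.124).

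**Figure D2:**
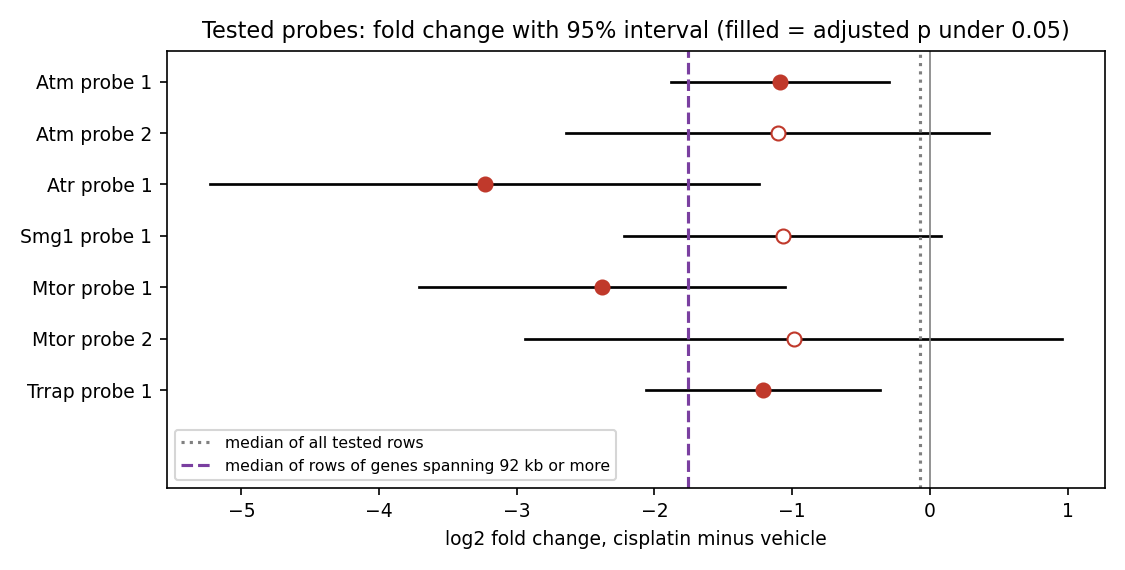
Log2 fold change, cisplatin minus vehicle, with its 95% interval for the 7 tested probes, filled where the adjusted p is under 0.05. Atr (-3.23) and Mtor probe 1 (-2.38) lie lowest, the other 5 probes lie between -1.21 and -0.99, and vertical lines mark the medians of all tested rows (-0.07) and of rows of genes that span 92.05 kb or more (-1.76).

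The order of probe signals was much the same in both groups. In vehicle libraries the most abundant probes averaged 99.7 CPM for Atm, 61.9 for Smg1, 51.9 for Trrap, 27.4 for Mtor, 16.0 for Atr and 3.39 for Prkdc. With cisplatin they averaged 46.7, 29.7, 22.4, 5.12, 1.67 and 1.43 CPM in the same gene order. Neighbours in this order overlapped between libraries in both groups for Atm and Smg1, for Smg1 and Trrap and for Mtor and Atr. Atr and Prkdc overlapped in cisplatin libraries alone, and Trrap lay above Mtor in both groups with no overlap. Probe signals depend on how well each probe works as well as on RNA, so this order does not rank the transcripts.

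The make-up of the family within a library does not depend on how libraries are scaled. Atm took 50.9%, 47.9% and 33.3% of the family counts in the cisplatin libraries, against 34.1%, 45.2% and 36.6% in the vehicle libraries. Atr took 0.862%, 0.599% and 2.86% with cisplatin, against 4.45%, 8.32% and 2.55% with vehicle, and the groups overlapped through mouse 3. The mean share of Atr differed by -3.67 percentage points, cisplatin minus vehicle (exact permutation p = 0.2, n = 3 each). Mtor took 8.88% ± 3.83 and 12.9% ± 5.01, Smg1 25.6% ± 11.1 and 22.9% ± 0.531, and Trrap 18.8% ± 6.21 and 19.3% ± 6.09. For the 6 shares the exact permutation p was 0.2 to 1.0 (each adjusted p = 1.0), but with 3 against 3 libraries the smallest p is 0.1, so no share could have passed and the test says nothing on whether the 6 genes changed equally.

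**Figure D3:**
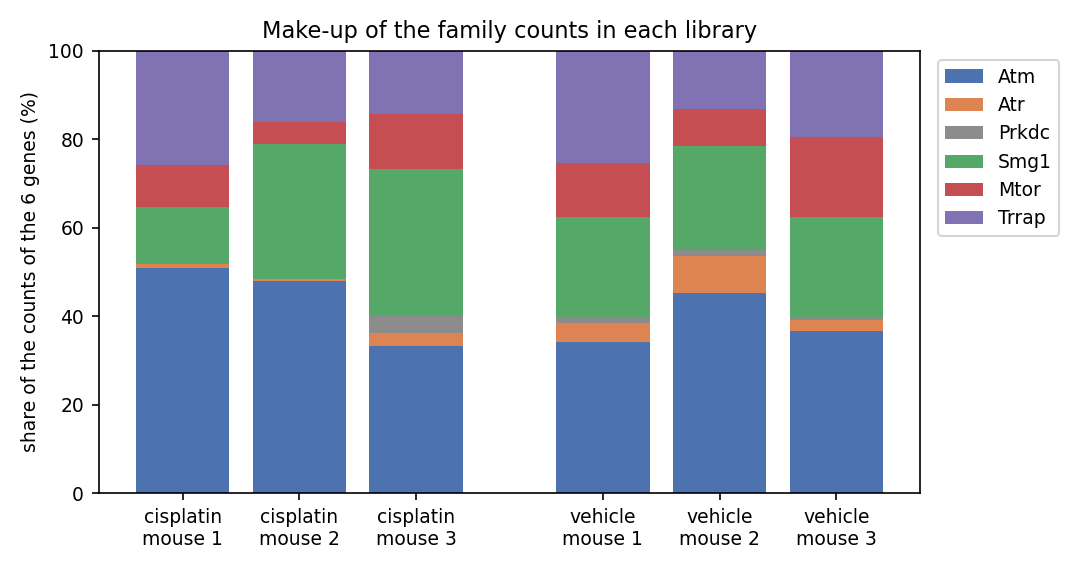
Stacked bars give the share of the summed counts of the 6 genes that each gene took in each library, in percent, with the 3 cisplatin libraries left of the 3 vehicle libraries. Atr is a thin band of 0.599% to 2.86% with cisplatin and 2.55% to 8.32% with vehicle, while Atm, Smg1 and Trrap make up most of the counts in every library.

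All 6 genes are long. In the GENCODE M21 annotation (GRCm38) Atm spans 97.59 kb and Atr 94.19 kb, both on chromosome 9, while Prkdc spans 204.4 kb on chromosome 16, Smg1 112.4 kb on chromosome 7, Mtor 109.1 kb on chromosome 4 and Trrap 92.05 kb on chromosome 5. Rows of long genes were lower with cisplatin across the whole table. Of 1412 tested rows of genes spanning at least 92.05 kb, the length of Trrap, 53.3% were called lower and 0.779% higher. Their median log2 fold change was -1.76, and the upper quartile, -0.95, was also below 0. Of 7876 rows of shorter genes 6.91% were called lower and 12.8% higher, with a median of 0.10. Every cisplatin library was below every vehicle library in 70.1% of the long-gene rows.

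The log2 fold change of Atm probe 1 was undercut by 70.8% of the long-gene rows, against 21.8% of all tested rows. For Trrap probe 1 the shares were 67.6% and 19.6%, and for Smg1 probe 1 they were 70.9% and 22.1%. Mtor probe 1 was undercut by 32.8% of long-gene rows and 6.84% of all rows, and Atr by 18.2% and 3.48%. Of the 7 tested probes 5 lay above the median long-gene row, and Mtor probe 1 and Atr lay below it. That class also holds genes of 200 kb or more (median -2.66), while no tested member spans more than 112.4 kb. In the band of 50 to 100 kb (median -0.70) the tested probes of Atm, Atr and Trrap all lay below the median. These genes span 97.59, 94.19 and 92.05 kb, at the upper end of that band, so its median comes mostly from shorter genes. In the band of 100 to 200 kb (median -1.61) Mtor probe 1 lay below it, and Smg1 probe 1 and Mtor probe 2 above. By mature transcript length, 39.5% of 602 rows were called lower among genes whose longest coding transcript has 8.102 kb or more, the length for Atr. The part of gene length in the changes of the 6 genes was not tested.

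**Figure D4:**
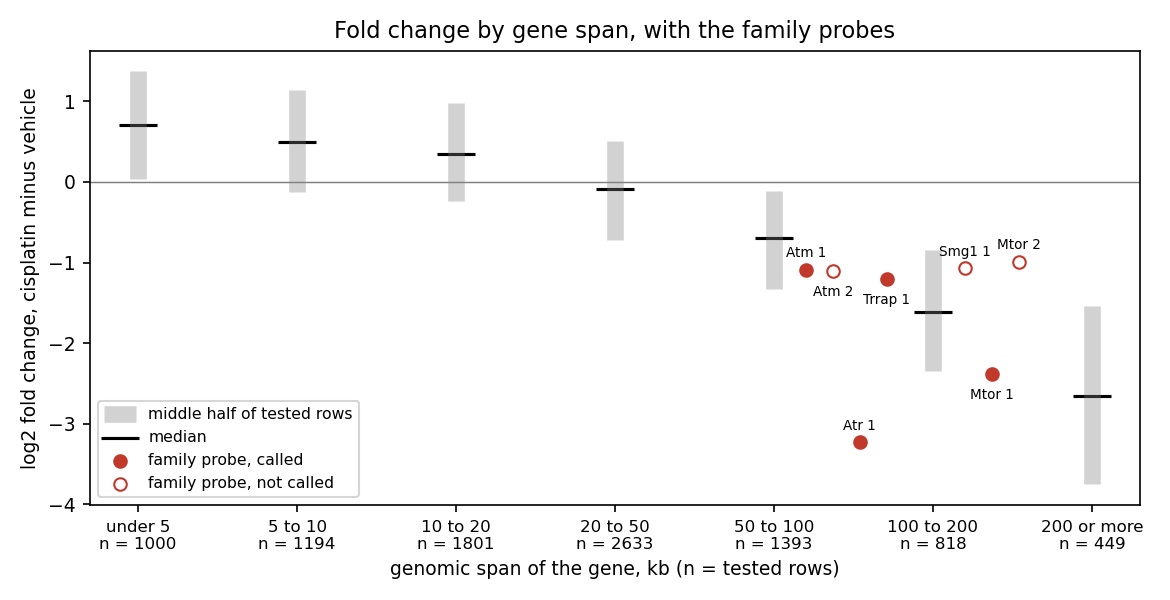
Log2 fold change, cisplatin minus vehicle, of all tested rows in bands of genomic span in kb, with the median as a dash and the interquartile range as a grey bar, and the 7 family probes as circles labelled by gene and probe number. The median is 0.70 in genes under 5 kb and -2.66 in genes of 200 kb or more, and the family probes sit in the bands of 50 to 100 kb (median -0.70) and 100 to 200 kb (median -1.61).

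The sequences before the start sites are shown because the members lay on the same side of 0 and their promoters can be compared directly. RefSeq (GRCm38.p6) gave a window of 250 bases before the start of 5 of the 6 genes, all but Prkdc. The stretches printed leave out bases that GENCODE M21 annotates as exon of the same gene, which removes the Trrap window, and they run 5′ to 3′ toward the start. Capitals mark the GC box (GGGCGG), the CCAAT box (CCAAT) and the core of ETS factor sites (CCGGAA), on either strand.
Atm, chr9:53536741-53536921, minus strand: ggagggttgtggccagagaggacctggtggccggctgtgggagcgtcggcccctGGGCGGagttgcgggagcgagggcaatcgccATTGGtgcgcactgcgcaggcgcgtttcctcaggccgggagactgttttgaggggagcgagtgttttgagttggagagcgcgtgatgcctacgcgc
Atr, chr9:95857347-95857596, plus strand: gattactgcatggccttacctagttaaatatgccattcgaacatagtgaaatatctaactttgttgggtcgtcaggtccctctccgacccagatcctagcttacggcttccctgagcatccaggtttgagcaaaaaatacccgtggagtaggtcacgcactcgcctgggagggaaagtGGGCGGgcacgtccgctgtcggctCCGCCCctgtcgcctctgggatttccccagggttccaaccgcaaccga
Smg1, chr7:118243671-118243887, minus strand: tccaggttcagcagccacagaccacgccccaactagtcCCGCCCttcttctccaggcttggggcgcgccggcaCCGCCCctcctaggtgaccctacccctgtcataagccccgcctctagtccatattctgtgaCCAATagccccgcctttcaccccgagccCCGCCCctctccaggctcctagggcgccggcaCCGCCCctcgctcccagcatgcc
Mtor, chr4:148448332-148448581, plus strand: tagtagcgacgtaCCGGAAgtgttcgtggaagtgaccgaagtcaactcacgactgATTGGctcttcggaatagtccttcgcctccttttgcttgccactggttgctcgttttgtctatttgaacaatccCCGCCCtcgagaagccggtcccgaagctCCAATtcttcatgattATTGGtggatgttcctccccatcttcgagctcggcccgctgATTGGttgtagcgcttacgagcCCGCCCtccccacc

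The 5 windows hold 24 (Atm), 15 (Atr), 23 (Smg1), 19 (Mtor) and 26 (Trrap) CpG dinucleotides in 250 bases, where the median over 32851 RefSeq windows of that length is 6 and the upper quartile 16. A GC box, the letters bound by SP1-like factors, was found in all 5 windows and in 32.7% of all windows, with 5 in Smg1, 2 in Atr, 2 in Mtor and 1 each in Atm and Trrap. A CCAAT box was found in Mtor (4 sites), Atm and Smg1 and in 33.8% of all windows. The ETS core was found in Mtor alone among the 5 and in 12.0% of all windows, and the TATA box letters (TATAAA) in none of the 5 and in 12.4% of all windows. No motif overlapped another. The counts take in bases annotated as exon that the printed stretches leave out. The Trrap window lies wholly in such bases, inside the gene as GENCODE annotates it. The Smg1 GC box nearest the start is left out of the printed stretch too. These matches describe the letters only.

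Among partners of the kinases 13 genes rose and 8 fell. Lists of damage, decay, growth and chromatin partners were drawn up from general knowledge, with each gene represented by its most abundant probe. Of 164 partner genes measured, 102 were tested, and their median log2 fold change was 0.01. Over all 7186 genes taken the same way, 13.8% were called lower and 12.3% higher, with a median of -0.02. Among the 13 tested partners that span at least 92.05 kb 4 fell and 1 rose (median -0.87), and among the 89 shorter ones 4 fell and 12 rose (median 0.06). Of those that rose, Ddit4, Rps6 and Nprl2 span 2.166, 2.753 and 3.481 kb. Over all tested rows of genes under 5 kb 28.8% were called higher, with a median of 0.70. With library totals alone as the scale, which puts the median of all rows at -0.54 in place of -0.07, 3 partners rose and 18 fell.

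Sensors and activators that bring ATM, ATR and DNA-PKcs to DNA were mostly uncalled. Of 26 listed 13 were tested, 1 rose and 1 fell, with a median of 0.13. Lig4, the ligase of end joining, had 88.8, 22.8 and 26.8 CPM with cisplatin, against 9.09, 14.5 and 13.0 CPM with vehicle, so every cisplatin library was higher. Its log2 fold change was 1.93 ± 0.55 (SE, edgeR adjusted p = 0.0210), and it was 1.13 and uncalled without cisplatin library 1 (adjusted p = 0.121), uncalled without any vehicle library (0.0529 to 0.102) and with library totals alone (0.0560). Xrcc6, the Ku70 subunit that recruits DNA-PKcs, was at 104, 120 and 132 CPM, against 211, 184 and 242 CPM (-0.84 ± 0.27, edgeR adjusted p = 0.0344, and -1.34 with library totals alone). It was uncalled without cisplatin library 1 or 2 or vehicle library 1 or 3 (edgeR adjusted p = 0.0718 to 0.166). Xrcc5, the Ku80 subunit, had 0 counts in the cisplatin libraries, against 5 in the vehicle libraries, too few to be tested. Atrip, the obligate partner of ATR, was not called and had a fitted value above 0 (1.02 ± 0.44, edgeR adjusted p = 0.110), against -3.23 for Atr, and the difference between them was not tested.

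Effectors of the damage kinases were largely too low to read. Of 23 listed 7 were tested and 1 fell, with a median of -0.19. That gene was Trp53bp1, a mediator of break repair that ATM phosphorylates, which had 4.23, 11.4 and 12.9 CPM with cisplatin, against 61.7, 39.1 and 76.4 CPM with vehicle. The groups were far apart, and the log2 fold change was -2.65 ± 0.50 (SE, edgeR adjusted p = 0.00185), or -1.67 with the probes of the gene summed. Trp53bp1 spans 78.13 kb. None rose in the reported edgeR fit, where 1 was higher at an unadjusted p under 0.05. The number called higher was 1 with the mouse as a block, without cisplatin library 2, by DESeq2 and by limma-voom. The checkpoint kinase genes were chosen for mention after their values were seen. Chek1, the main substrate of ATR, summed to 10 counts over the cisplatin libraries, against 38 over the vehicle libraries. Chek2, a main substrate of ATM, summed to 8 against 3 counts, all too few to be tested.

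Factors of nonsense-mediated decay moved both ways. Of 18 listed 13 were tested, 4 rose and 1 fell, with a median of 0.37. Rnps1, a splicing factor bound to the exon junction complex that marks spliced mRNA, had 173, 171 and 138 CPM with cisplatin, against 60.5, 64.4 and 60.2 CPM with vehicle (log2 fold change 1.38 ± 0.28, edgeR adjusted p = 0.00334). Eif4a3, the helicase of that complex, was at 1.40 ± 0.33 (edgeR adjusted p = 0.00713), Casc3 at 1.32 ± 0.38 (0.0203) and Magoh at 1.11 ± 0.34 (0.0276). Rbm8a, the binding partner of Magoh in that complex, was not called (0.37 ± 0.40, edgeR adjusted p = 0.553), nor were Upf3b (0.13 ± 0.26, 0.772) and Upf3a (-0.21 ± 0.44, 0.773), which link the complex to UPF1. In each of the 4 called genes all 3 mice were higher with cisplatin, but with library totals alone 0 decay factors were called higher. Casc3 was also uncalled without cisplatin library 3 (edgeR adjusted p = 0.0594) or vehicle library 2 (0.0599) or 3 (0.0848). Nbas, which also works in transport at the endoplasmic reticulum, fell (-2.39 ± 0.44, edgeR adjusted p = 0.00169) and spans 314.7 kb, with -3.05 without cisplatin library 2.

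Of the proteins that act directly with SMG1, Smg9, a subunit of its complex, had a fitted value of -1.49 ± 0.53 (edgeR adjusted p = 0.0545), and Smg8, the other subunit, had 0.28 ± 0.77 (0.833). Upf1, the substrate of SMG1, had 0.73 ± 0.29 (0.0799). None of these passed in the reported edgeR fit. Over the whole list DESeq2 called 5 higher and 2 lower, and limma-voom 4 and 2. Smg6, the endonuclease of the pathway, had 0 counts over the cisplatin libraries, against 38 over the vehicle libraries, under the filter. These genes were picked after their values were seen.

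The mTOR complexes and their regulators also held genes that rose and genes that fell. Of 32 listed 20 were tested, 4 rose and 3 fell, with a median of -0.24. With library totals alone 2 were called higher and 7 lower, and with the probes of a gene summed 4 and 5. Rptor, the raptor subunit that defines mTORC1, had 8.46, 0.951 and 3.22 CPM with cisplatin, against 30.8, 24.6 and 24.4 CPM with vehicle. Its log2 fold change was -2.61 ± 0.68 (SE, edgeR adjusted p = 0.0129), near that of Mtor probe 1, and its gene spans 296.7 kb. It was uncalled without vehicle library 1 (edgeR adjusted p = 0.0870) and at -3.57 without cisplatin library 1. Rictor, which defines mTORC2, was not called (-1.59 ± 0.97, edgeR adjusted p = 0.256). Deptor, an inhibitor bound to both complexes, and Sesn3, a stress-induced restraint, also fell, at -1.47 and -1.59.

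The 4 that rose include activators and inhibitors of mTORC1. Nprl2, a subunit of the complex that shuts mTORC1 off when amino acids are short, had 169, 159 and 147 CPM with cisplatin, against 44.7, 48.0 and 53.1 CPM with vehicle. The groups were far apart, with a log2 fold change of 1.70 ± 0.29 (SE, edgeR adjusted p = 0.000973). Ddit4, a stress-induced inhibitor of mTORC1, rose by 1.90 ± 0.53, and was uncalled without cisplatin library 2, without any vehicle library or with library totals alone (edgeR adjusted p = 0.0506 to 0.0915). Rragc, a GTPase that brings mTORC1 to the lysosome, rose by 1.90 ± 0.49, and was uncalled without vehicle library 1 (edgeR adjusted p = 0.0660) or 3 (0.0641). Rheb, the GTPase that activates mTORC1, rose by 1.29 ± 0.29 (edgeR adjusted p = 0.00584). Without single libraries the number that rose was 1 to 4 and the number that fell 0 to 3.

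Among 22 targets of the mTOR complexes 17 were tested and 3 rose, with a median of -0.02. Sgk1, a kinase activated by mTORC2 and induced by stress, had 71.9, 38.0 and 68.6 CPM with cisplatin, against 9.88, 6.95 and 20.9 CPM with vehicle (log2 fold change 2.22 ± 0.48, edgeR adjusted p = 0.00481). It was at 2.77 without vehicle library 3 and spans 117.7 kb. Rps6, a ribosomal protein and the classic readout of mTORC1 at the protein level, rose by 1.22 ± 0.33, and Ulk1, the autophagy kinase that mTORC1 restrains, by 0.80 ± 0.27. With library totals alone neither was called (edgeR adjusted p = 0.105 and 0.513), and both were uncalled without vehicle library 1 or 3, Ulk1 also without cisplatin library 2 or 3 or vehicle library 2. Rps6, like the chaperone gene Hsp90ab1, has near-identical copies in the genome, and how such reads were assigned is not given in the sources used here. None was called lower in the reported edgeR fit, where 4 were lower at an unadjusted p under 0.05, or by DESeq2. The number called lower was 3 with library totals alone, 2 with the probes of a gene summed, and 1 by limma-voom, without filtering, without cisplatin library 1 or without vehicle library 2.

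Of 33 subunits and partners of the TRRAP complexes 23 were tested, 1 rose and 2 fell, with a median of 0.01. Kat2b, an acetyltransferase of SAGA-type complexes, had 17.8, 8.56 and 5.36 CPM with cisplatin, against 41.5, 58.1 and 44.1 CPM with vehicle (log2 fold change -2.15 ± 0.49, edgeR adjusted p = 0.00649). Its gene spans 105.9 kb. Brd8, a bromodomain subunit of the TIP60 complex, was at -1.79 ± 0.43 (edgeR adjusted p = 0.00808) and uncalled without vehicle library 1 (0.0713) or 3 (0.0580). Morf4l2, also of the TIP60 complex, rose by 1.28 ± 0.36, and was uncalled with library totals alone (edgeR adjusted p = 0.0938), without cisplatin library 1 (0.0739) or without vehicle library 1 (0.103) or 3 (0.0752). Ep400, the large ATPase that sits with TRRAP in that complex and spans 106.3 kb, was not called (0.22 ± 0.30, edgeR adjusted p = 0.646).

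Chaperones that fold and assemble the kinase family held no called gene in the reported edgeR fit. Of 11 listed 10 were tested, with a median of -0.04. None was called in the reported edgeR fit or by DESeq2, 1 was higher at an unadjusted p under 0.05 and 1 was called higher by limma-voom. Hsp90ab1, the constitutive form of the chaperone, had 674, 387 and 325 CPM with cisplatin, against 104, 419 and 91.3 CPM with vehicle. Vehicle library 2 was high, and the groups overlapped (log2 fold change 1.18 ± 0.50, edgeR adjusted p = 0.101). With the mouse as a block it was called higher (1.49, edgeR adjusted p = 0.0128), as it was without vehicle library 2 (2.23, 0.00293), without filtering (1.1, 0.00840) and by limma-voom (1.52, 0.0149). It was at 0.52 with the probes of the gene summed (edgeR adjusted p = 0.288), and at 0.89 without cisplatin library 1 or vehicle library 1 and 0.80 without vehicle library 3, uncalled in each. Hsp90aa1, the inducible form, was at 0.49 ± 0.31 (edgeR adjusted p = 0.276). Telo2 (0.57 ± 0.64) and Tti1 (-1.61 ± 0.95), subunits of the complex dedicated to this family, were not called either (edgeR adjusted p = 0.566 and 0.236).

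**Figure D5:**
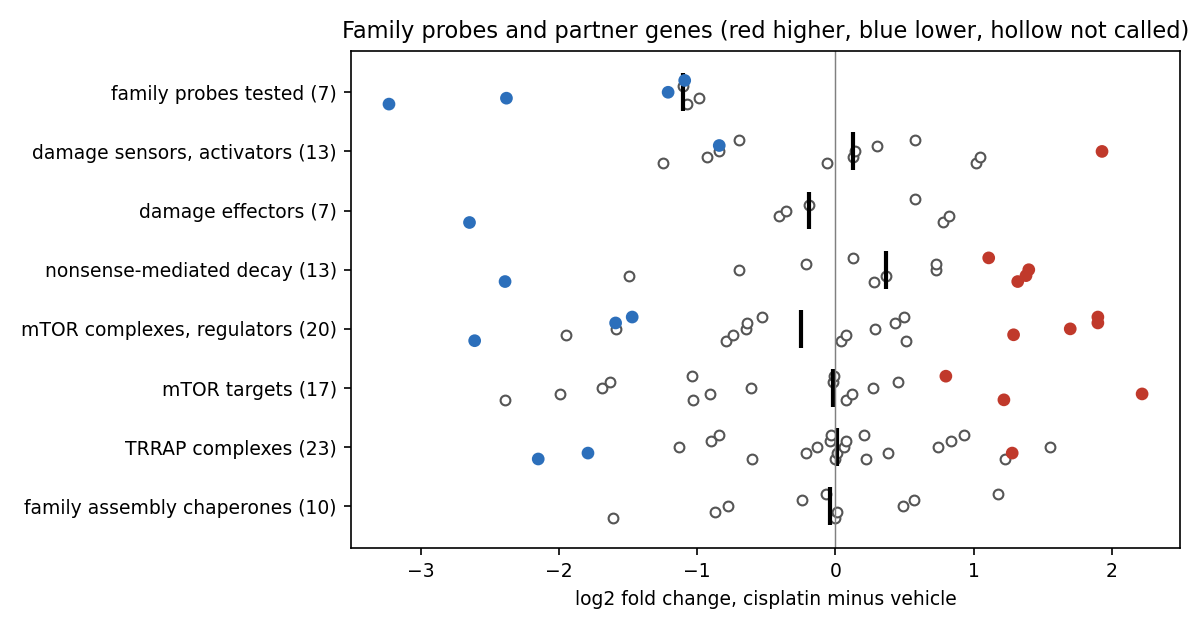
Log2 fold change, cisplatin minus vehicle, of the 7 tested family probes and of the tested genes of each partner list, with the number tested in brackets, a bar at the median, red for called higher, blue for called lower and hollow for not called. Family probes all lie left of 0, while each partner list has genes on both sides and a median between -0.24 and 0.37.

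The rows most like each kinase were found by the root mean square difference of centred log2 CPM over the 6 libraries, among about 5600 rows of other genes with a mean of at least 20 CPM. For Atm probe 1 these were Fip1l1 (0.126) and Ppfibp1 (0.135), where the median row differed by 0.87. Trrap probe 1 was most like Gtf2i (0.105) and Xpo6 (0.125), with a median of 0.86 over the candidates. Smg1 probe 1 was most like Fam149b (0.188) and Iars (0.288), Mtor probe 1 most like Atp8b1 (0.264) and Sort1 (0.273), and Atr most like Pitpnm2 (0.373) and Hs2st1 (0.376), with medians of 1.26, 1.34 and 1.48. Among so many rows close matches over 6 libraries are common, and the likeness is a description only.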

How the data were processed

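TempO-Seq libraries of 3 cisplatin and 3 vehicle islet cultures were analysed. The authors deposited whole-number counts per probe and library, with no normalization. Tools listed in the submitters' processing notes, without roles, are STAR 2.7.10b, fastp 0.23.2 and DESeq2 1.44.0. Neither the alignment target and build nor how reads were counted is stated in the sources used here, and probe positions were not used here. The genes and lists were chosen with earlier results of these data known.

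The filterByExpr step of edgeR (minimum count 10) left 9381 rows for 7193 genes. edgeR 4.0.16 in R 4.3.3 tested treatment as the only term (TMM factors, robust quasi-likelihood, two-sided), with adjustment over all tested rows and calls at an adjusted p under 0.05. CPM values use TMM factors, SD is over 3 libraries, and each SE was derived from the F statistic. The p-values measure the spread between libraries. Floors (3 counts over the group) and exact 95% intervals cover counting error only. Likeness used log2 CPM with a prior count of 2. The fit was tested on simulated counts. No libraries agreed within sampling noise.

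All family probes were named. Of each partner list up to 4 called genes with the largest change were named, or the 2 most abundant where none was called. Magoh, Rbm8a, Upf3a, Upf3b, Rheb, Deptor, Sesn3, Rictor, Atrip, Xrcc5, Ep400, Telo2 and Tti1 were named besides, after their values were seen. Gene spans and transcript lengths came from GENCODE M21 and covered 9288 of 9381 tested rows.

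Both libraries of a mouse carry the same animal identifier in the labels. Deviations from the group means correlated at -0.116, 0.0336 and 0.219 within the 3 mice. The reported fit has no mouse term, and the mouse as a block was an alternative. The permutation tests of the family sum and shares treated all libraries as independent and did not use the pairing by mouse. Other alternatives were library totals alone, factors by RLE or upper quartile, a mean CPM of at least 10, no filter, limma-voom (limma 3.58.1), DESeq2 1.42.0, summing the probes of a gene, thinning all libraries to the smallest, and each library or mouse left out.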

Additional observations from a re-analysis of the deposited data

How the results depend on the processing

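Under all alternatives run, every tested family probe kept a fitted change below 0. Atm probe 1 was called in 10 of 19 alternatives, Atr in 10 of 17, Mtor probe 1 in 14 of 19, Trrap probe 1 in 10 of 19 and Smg1 probe 1 in 2 of 19. Atr could not be fitted after thinning or with a mean CPM of at least 10, where it failed the filter. The number of family probes called lower, 4 in the reported fit, was 2 with the mouse as a replicate block and 2 after thinning, 0 to 3 with a single library left out and 0 to 1 with a mouse left out. Over all rows, library totals alone gave 459 higher and 2023 lower, a single library left out gave 504 to 1244 higher and 581 to 1294 lower, and a mouse left out gave 424 to 656 and 597 to 855. Of the partner genes, 3 were higher and 18 lower with library totals alone, 5 to 13 higher and 3 to 8 lower without a library, and 4 to 9 higher and 2 to 5 lower without a mouse.

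The summed family counts had a log2 ratio of -1.77 in CPM of the library totals and -1.29 on the TMM scale. Differences in family shares, where no p could pass with 3 against 3 libraries, changed sign for Trrap (-0.545 percentage points) with the most abundant probes only (1.39) and over a range of -4.09 to 2.48 without single libraries, for Prkdc (0.154) over a range of -1.12 to 0.789, and for Smg1 (2.7) over -1.16 to 9.04. The cause was not tested. With the mouse as a block Atr and Trrap probe 1 lost their calls, at -3.08 and -1.22, Hsp90ab1 gained one, and no other call on a family probe or on a partner named by the rule changed. Low counts limit the precision of Atr, Prkdc and probe 2 of Mtor, Smg1 and Trrap most.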
